A study of Cephalotaxus fortunei with 9 samples.

Results

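In the conifer Cephalotaxus fortunei, 280 of 37051 transcripts (0.756%) were carried by leaf and root at mean levels within 5-fold and were low in stem. They were chosen by their TPM, an abundance that divides reads by transcript length and scales every library to the same total. A member had at least 10 TPM in each of the 3 leaf and 3 root libraries, leaf and root means within 5-fold of each other, and a smaller mean at least 5 times the stem mean. Of 6208 transcripts that reached 10 TPM in every leaf and root library, 5778 had means within 5-fold, and 4.85% of those were low enough in stem to be members. The values of all 9 libraries thus chose the members, so their levels and folds are given as descriptions. Calls of a count model fitted to all transcripts are counted beside their share over all transcripts, and nothing is concluded from them.

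Leaves of a conifer carry photosynthesis and gas exchange, roots take up water and minerals, and the stem holds wood, bark and the conducting tissues that link them. Cephalotaxus, the plum yew, is known for cephalotaxine-type alkaloids, from which a drug against leukaemia is derived, and the study of this series sought the enzymes that make these and the homoerythrina alkaloids. In such bulk RNA, fewer cells of a type and less RNA per cell cannot be told apart.

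The groups were leaf (3 libraries), root (3 libraries) and stem (3 libraries) of Cephalotaxus fortunei, with tissue as the stated difference between them. The labels give no genotype, treatment or plant age. They also do not tell whether replicates were different plants, and the spread between them, on which the p-values rest, may be technical. Transcripts carry running numbers, and no names or sequences were used here. The roles of the members, the markers of each organ and the sequences could not be looked up, and the tissue labels were not checked against markers.

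Leaf libraries held 12809484 to 14606814 estimated reads, root libraries 7117807 to 8093638 and stem libraries 18417327 to 19652495, so the tissue in which the members were low was the most deeply sequenced. The counts of root replicates 1 and 2 agree within sampling noise, with a chi-square statistic per degree of freedom of 0.527, against 14.6 to 29.4 in the other pairs of libraries within a tissue. They were averaged and counted as 1 sample, which left 2 root samples. Root replicate 3 stood apart from that pair, at 28.8 and 29.4.

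In sum the members took up 1.48% ± 0.0493 of all TPM in leaf (SD, n = 3). Their sum was 1.71% ± 0.0780 in root (SD, n = 2) and 0.0963% ± 0.00954 in stem (SD, n = 3). Most were of moderate abundance: the median over members was 28.3 TPM in leaf, 37.8 TPM in root and 2.46 TPM in stem. The highest mean was 1724 TPM in leaf, 1778 TPM in root and 43.5 TPM in stem. The smaller of the leaf and root means reached 50 TPM in 48 members and 100 TPM in 15. The highest stem library lay below the lowest leaf and root library in all 280 members, against 18.6% of all 37051 transcripts, a count that the rule all but fixes.

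**Figure D1:**
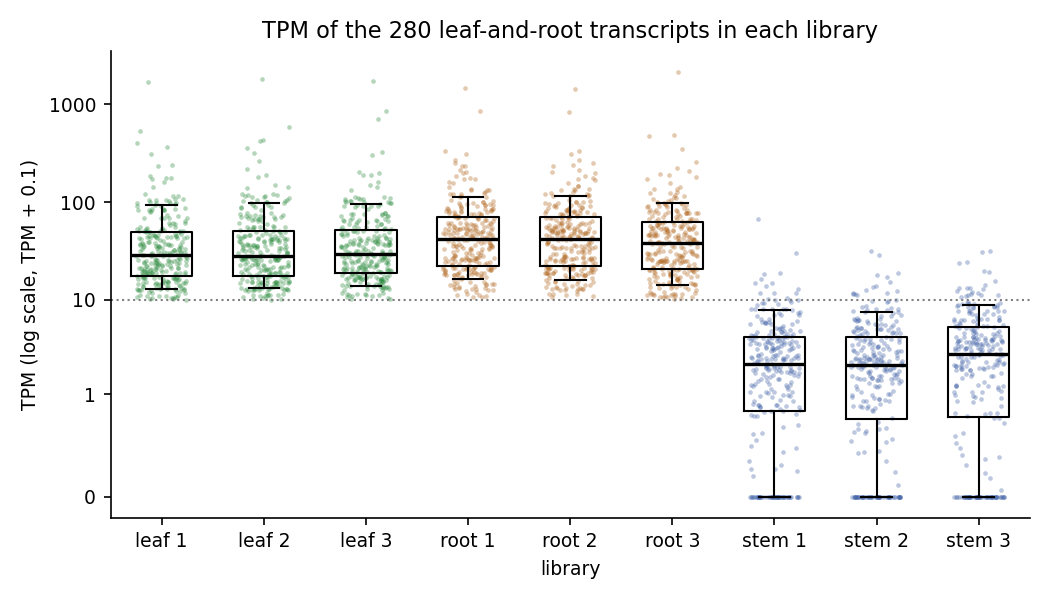
TPM of the 280 members in each of the 9 libraries, on a log axis of TPM + 0.1; each point is a member, boxes span the quartiles with the median, whiskers run from the 10th to the 90th percentile, and the dotted line marks 10 TPM. Library medians lie at 28.5 to 29.6 TPM in leaf, 38.4 to 42.5 TPM in root and 2.08 to 2.75 TPM in stem.

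All 280 members passed the expression filter of the count model, and 268 were called higher in leaf than in stem, against 14.5% of all tested transcripts (edgeR quasi-likelihood test, adjusted p under 0.05 and at least 2-fold). For root over stem 256 were called, against 31.8% of all. Nothing is read from these counts, since the rule used both contrasts. The fitted median log2 fold change of the members was 2.70 for leaf over stem, against 0.02 over all tested transcripts, and 3.02 for root over stem, against 0.46. On the TPM scale, with members under 3 stem reads set to a floor of 3 reads, the members' medians were 3.27 ± 0.05 for leaf over stem (SD, n = 3) and 3.96 ± 0.23 for root over stem (SD, n = 2). These SDs are over leaf libraries and root samples with stem held at its mean, so they leave out the spread between stem libraries. Without stem replicate 3 these medians were 3.46 and 4.17. TMM scaling, which corrects for a few abundant transcripts taking up a library, placed its factors at 0.75 to 0.79 for stem, 1.16 and 1.26 for root, and 1.12 to 1.14 for leaf. Library totals without these factors moved the median over all tested transcripts to 0.57 for leaf over stem and 1.09 for root over stem, and the members' medians to 3.24 and 3.65. With TPM divided by such factors, 141 transcripts met the rule, 139 of them among the 280.

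The most abundant members were ranked by the smaller of their leaf and root means. Transcript transcripts_34329 (325 bases) led with 529, 581 and 703 TPM in leaf replicates 1 to 3, 1462, 1411 and 2120 TPM in root, and 19.0, 15.4 and 15.5 TPM in stem. All root libraries lay above all leaf libraries in TPM, and the leaf mean was 36.3 times and the root mean 107 times the stem mean. In the count model, which divides by no length, its log2 change was 4.49 for leaf over stem and 5.41 for root over stem. For leaf over root it was -0.92, short of the 2-fold needed for a call. Transcript transcripts_31430 (2425 bases) had 361, 424 and 846 TPM in leaf, 847, 838 and 489 TPM in root, and 66.5, 32.0 and 31.8 TPM in stem. Its leaf and root libraries overlapped, 1 library of each tissue departed from the others, and its stem level was the highest of all members.

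Transcript transcripts_25642 (579 bases) was the most abundant member in leaf, with 1672, 1790 and 1710 TPM there, 311, 310 and 476 TPM in root and 15.04, 11.4 and 8.42 TPM in stem. It leaned to leaf, at 4.38 times the root mean, and left the set without root replicate 3. Transcript transcripts_14548 (863 bases) was even between leaf (239, 263 and 202 TPM) and root (251, 251 and 174 TPM), against 12.9, 11.8 and 11.3 TPM in stem. The libraries of leaf and root overlapped, and the 3 stem libraries lay within a narrow band. The other one of the 5 most abundant, transcripts_36356, had no stem read and is given with that class.

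No stem library held an estimated read of 27 members, although the 3 stem libraries comprised 56634747 reads. Their smaller means ran from 12.4 to 213 TPM, with a median of 21.6 TPM. Against a floor of 3 reads over the 3 stem libraries, their smaller mean was at least 41.7-fold to at least 2328-fold higher than stem. These bounds depend on length and cover counting error only. Salmon divides reads among similar transcripts, so 0 reads on a transcript does not show that a near-identical one had none. Of these 27, 15 were over 1000 bases long and 4 were up to 300 bases.

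Transcript transcripts_36356 (264 bases) was the most abundant of them, with 234, 314 and 198 TPM in leaf and 236, 241 and 188 TPM in root, against 0 TPM in every stem library. This corresponded to 303, 361 and 249 reads in leaf and 98, 98 and 76 reads in root, and put leaf at least 425-fold and root at least 365-fold higher than stem. Transcript transcripts_11971 (213 bases) had 176, 182 and 98.1 TPM in leaf, 103, 105 and 123 TPM in root and 0 TPM in stem. Leaf and root overlapped in TPM in both of these short transcripts, and the second rested on 24.99 to 30 reads in each root library. The count model, which divides by no length, called both higher in leaf than in root, with log2 fold changes of 1.05 and 1.24.

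Transcript transcripts_7079 (1367 bases) had 61.3, 117 and 71.9 TPM in leaf, 42.5, 49.1 and 53.0 TPM in root and 0 TPM in stem. Leaf was at least 2020-fold and root at least 1195-fold higher than stem. Every leaf library lay above every root library, by a small margin. Transcript transcripts_13147 (1243 bases) had 72.9, 69.1 and 73.1 TPM in leaf, 61.4, 61.2 and 34.1 TPM in root and 0 TPM in stem. It was close to equal among leaf libraries, and root replicate 3 was the lowest of the 6 libraries with reads. Leaf was at least 1258-fold and root at least 837-fold higher than stem.

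A further 10 members had fewer than 3 stem reads in all, and 74 of the 280 had a stem mean below 1 TPM. The stem mean was 1 to 5 TPM in 150 members and 5 TPM or more in 56. Reads were present in all 3 stem libraries for 201 members, in 2 for 26 and in 1 for 26. The smaller mean was 5 to 10 times the stem mean in 159 members, 10 to 20 times in 35, 20 to 100 times in 46 and 100 times or more in 40. The set therefore ran from transcripts just past the limit to transcripts with almost no stem reads, with a median of 8.32-fold.

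Among members with at least 10 stem reads, transcripts_3329 (3135 bases) stood furthest above stem. It had 98.1, 97.1 and 102 TPM in leaf, 94.0, 93.0 and 67.0 TPM in root, and 0.224, 0.133 and 0 TPM in stem. Its leaf mean was 831 times and its root mean 674 times the stem mean, which rested on 21.2 stem reads (95% exact Poisson interval 13.0 to 32.1). Transcript transcripts_6040 (1832 bases) had 49.8, 55.2 and 63.6 TPM in leaf, 137, 137 and 136 TPM in root, and 0, 0.388 and 0 TPM in stem. Root was above leaf in every library, and the root level was nearly the same in all root libraries.

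Transcript transcripts_29759 (1222 bases) had 84.0, 88.5 and 143 TPM in leaf, 172, 173 and 116 TPM in root, and 0, 0 and 0.816 TPM in stem. All stem reads of these last 2 transcripts came from a single stem library, replicate 2 for transcripts_6040 (14.4 reads) and replicate 3 for transcripts_29759 (15.4 reads). Transcript transcripts_36437 (5718 bases), which is also the second longest member, had 11.4, 10.05 and 10.5 TPM in leaf, 49.9, 49.8 and 38.2 TPM in root, and 0.0622, 0.0324 and 0.0177 TPM in stem. Its leaf libraries lay just above the 10 TPM minimum, and it left the set when TPM was divided by TMM factors or computed from full length.

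Members of the highest stem level were low there relative to leaf and root, as the rule requires. Transcript transcripts_2405 (3257 bases) had 161, 142 and 159 TPM in leaf, 213, 213 and 158 TPM in root, and 30.0, 28.8 and 30.6 TPM in stem. With 6527 stem reads it was one of the best measured members, and at 5.17-fold it lay close to the limit. It left the set under TMM-scaled TPM. Transcript transcripts_8764 (466 bases) had 176, 218 and 148 TPM in leaf, 113, 115 and 192 TPM in root, and 16.5, 17.3 and 24.3 TPM in stem. Its root replicate 3 was the highest root library, and leaf and root overlapped.

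**Figure D2:**
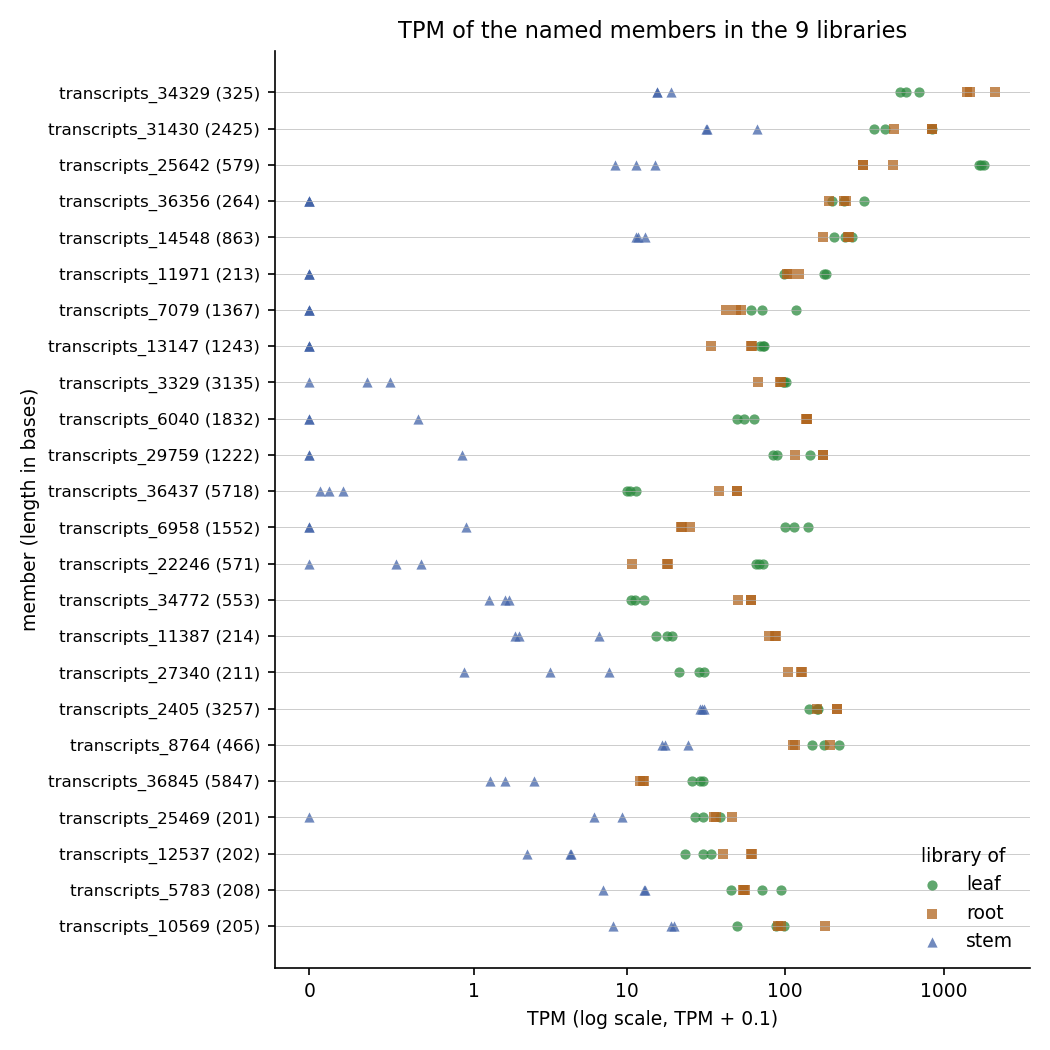
TPM of the 24 named members (rows, with length in bases) in the leaf (circles), root (squares) and stem (triangles) libraries, on a log axis of TPM + 0.1; symbols overlap where libraries have near-equal values, as at 0 TPM in stem. Stem triangles lie left of all leaf and root symbols in every row, and leaf lies right of root in several, such as transcripts_25642, transcripts_6958 and transcripts_22246.

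The rule allows leaf and root to differ up to 5-fold. On the TPM scale the leaf mean was above the root mean in 99 members (35.4%), against 58.9% of the 5498 other transcripts that passed the same limits in leaf and root. Leaf was more than 2 times root in 27 members (9.64%, against 20.7% of the others) and root more than 2 times leaf in 68 (24.3%, against 12.5%), and 185 lay within 2-fold. The median leaf-to-root ratio was 0.784 in members and 1.16 in the others, and the members' value was -0.35 ± 0.14 on the log2 scale (SD, n = 2 root samples, with leaf held at its mean). In single libraries, all leaf values lay above all root values in 63 members (22.5%), against 21.5% of all transcripts, and all root values above all leaf values in 119 (42.5%), against 36.6% of all. Both shares were near those over all transcripts, but among the 5498 others the shares were 45.9% and 28.0%. In the count model 47 members (16.8%) were called different between leaf and root, against 44.3% of all tested transcripts, with 23 higher in leaf (17.7% of all) and 24 higher in root (26.6% of all). The rule limits this contrast, so the low share is not a result. The split moved with the settings: it was 21 higher in leaf and 48 higher in root with effective lengths as offsets, 16 and 28 with DESeq2 size factors in edgeR, 18 and 28 with library totals alone, and 26 and 55 with limma on log2(TPM + 1), a different model on another input. It leaned to leaf with no expression filter, at 25 and 17, and in the fit whose root group was replicate 3 by itself, at 21 and 14.

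The leaf-to-root ratio differed with length, in members as in other transcripts. Its median was 0.613 in members and 0.627 in the others up to 300 bases, 0.898 and 1.16 between 300 and 1000 bases, and 1.02 and 1.28 above 1000 bases. The effective length, which Salmon adjusts for each library and by which TPM is divided, differed between tissues in the same short members. Its median was 71.6 bases in leaf, 31.5 bases in root and 68.6 bases in stem for members up to 300 bases, a leaf-to-root ratio of 2.27. That ratio was 1.21 between 300 and 1000 bases and 0.992 above 1000 bases. An effective length can exceed the transcript, as in transcripts_31430 (2425 bases), with a mean of 3149 bases in leaf. TPM from full length leaves that adjustment out. With TPM computed from full length instead, each library was scaled again to the same total. The median leaf-to-root ratios of these same 280 members were then 0.944, 0.764 and 0.744 from short to long, so their order turned round. Over transcripts that then passed the leaf and root limits and were not chosen, they were 0.943, 1.13 and 1.00. The short class stayed lowest there. Members above 1000 bases moved from 1.02 to 0.744 although their effective lengths were near equal in leaf and root. The count model, which divides by no length, gave a median log2 leaf-over-root change of -0.04 for the members, against -0.27 over all tested transcripts. All tested transcripts include those outside the leaf and root limits. No such median was taken over the others that passed these limits, so the 2 comparisons are unlike.

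**Figure D3:**
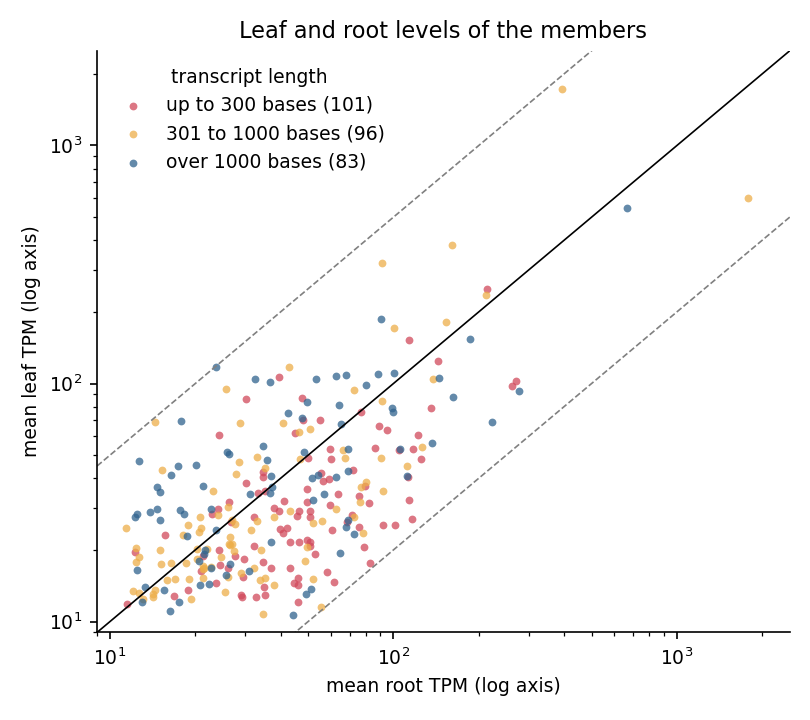
Mean leaf TPM against mean root TPM of the 280 members, both on log axes, coloured by transcript length; the solid line marks equal levels and the dashed lines 5-fold. Members up to 300 bases lie mostly below the solid line, with a median leaf-to-root ratio of 0.613.

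The 3 outermost members were taken at each end of the leaf-to-root range. Transcript transcripts_6958 (1552 bases) had 100, 139 and 113 TPM in leaf, 21.9, 22.3 and 25.1 TPM in root, and 0.868, 0 and 0 TPM in stem. Its leaf mean was 4.98 times its root mean, and all of its 24.8 stem reads came from replicate 1. Transcript transcripts_22246 (571 bases) had 68.1, 72.4 and 65.9 TPM in leaf, 17.8, 18.3 and 10.8 TPM in root, and 0, 0.406 and 0.251 TPM in stem. In both, every leaf library lay well above every root library in TPM, as in transcripts_25642 above. The count model called transcripts_22246 and transcripts_25642 higher in leaf than in root. It did not call transcripts_6958 (log2 change 2.01, edgeR quasi-likelihood test, adjusted p 0.0625). Under TMM-scaled TPM transcripts_6958 and transcripts_22246 left the set. Without root replicate 3 transcripts_6958 also left it, as did transcripts_22246 with root replicate 3 as the only root library.

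At the root end, transcripts_34772 (553 bases) had 12.7, 11.3 and 10.6 TPM in leaf, 60.7, 60.6 and 50.2 TPM in root, and 1.25, 1.73 and 1.61 TPM in stem. The tissues were separate, with stem lowest, and the leaf mean was 0.208 times the root mean. It left the set without root replicate 3 and under TMM-scaled TPM. Transcript transcripts_11387 (214 bases) had 18.0, 15.3 and 19.3 TPM in leaf, 85.8, 87.6 and 78.6 TPM in root, and 1.89, 1.997 and 6.57 TPM in stem. Those levels rested on 10.8 to 15 reads per leaf library, 18 to 20 per root library and 2 to 7 per stem library. Transcript transcripts_27340 (211 bases) had 30.9, 28.4 and 21.3 TPM in leaf, 126, 128 and 105 TPM in root, and 3.18, 0.845 and 7.62 TPM in stem. In both of these short transcripts leaf and root held similar numbers of reads, in root from smaller libraries and over shorter effective lengths, and each root library was above each leaf library in TPM. Both left the set under TMM-scaled TPM, and transcripts_11387 also with TPM from full length.

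On the deposited TPM, members were shorter than the other 5498 transcripts with at least 10 TPM in leaf and root within 5-fold. Their median length was 416 bases (quartiles 258 and 1235), against 1360 bases (quartiles 531 and 2262) for those others. The smaller of the leaf and root means had a median of 24.8 TPM in members and 30.2 TPM in the others. Transcripts up to 300 bases made up 36.1% of members and 13.0% of those others, and transcripts over 1000 bases 29.6% and 61.1%. Put the other way, members were 12.4% of such transcripts up to 300 bases, 6.31% between 300 and 1000 bases and 2.41% above 1000 bases. The same rule turned to the other tissues gave 147 transcripts of stem and root low in leaf, 6.80% of them up to 300 bases, and 614 of leaf and stem low in root, 7.49% of them up to 300 bases. With TPM from full length the shares of short transcripts were 10.7%, 4.37% and 10.5% in that order, so the gap to the set low in root was nearly gone. These shares are descriptions over transcripts, which are not independent replicates.

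The length pattern moved with the length correction and was present in the short transcripts that were not members. Among the 5498 others, the median stem mean was 44.1% of the smaller of the leaf and root means up to 300 bases, 103% between 300 and 1000 bases and 115% above 1000 bases. With TPM from full length, over the transcripts that then passed the leaf and root limits and were not chosen, these medians were 46.9%, 98.5% and 94.5%. The rule on full-length TPM again chose 280 transcripts, but only 184 were the same. Transcripts up to 300 bases were 30 of these 280 (10.7%), in place of 101. Fewer such short transcripts then passed the leaf and root limits, 399 in place of 817. On full-length TPM members were 7.52% of the transcripts up to 300 bases that passed, 7.53% between 300 and 1000 bases and 3.42% above 1000 bases. The members over 1000 bases then numbered 141 in place of 83, and 78 of the 83 were kept.

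**Figure D4:**
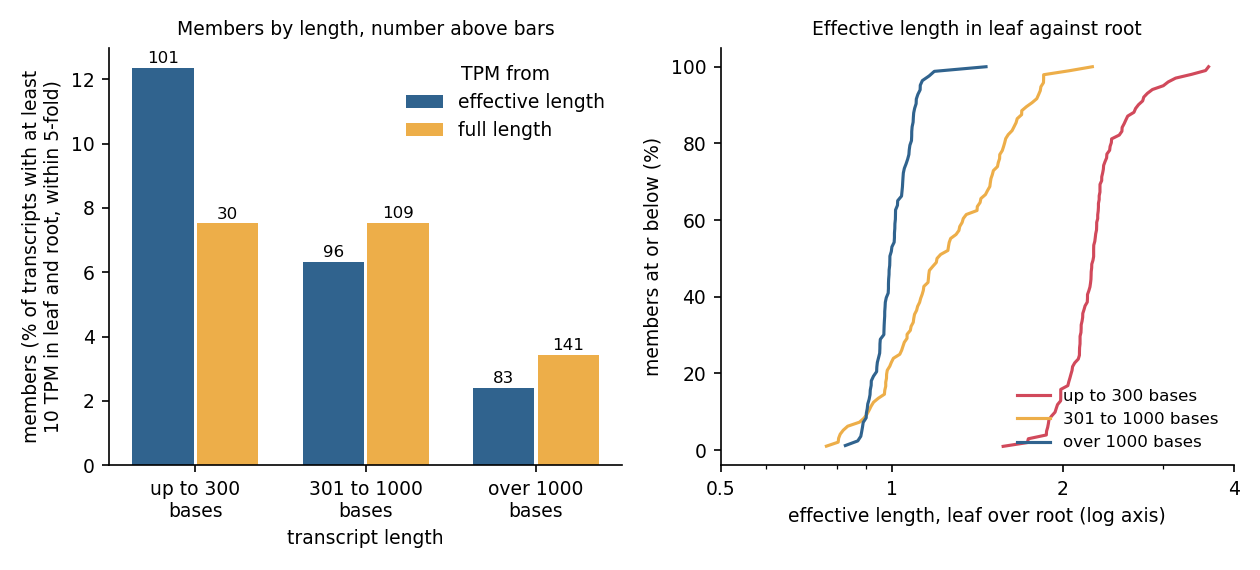
Left, members as a percentage of transcripts with at least 10 TPM in leaf and root within 5-fold, by length class, with TPM from effective length (as deposited) and from full length; the number of members stands above each bar. Right, cumulative share of the 280 members by the ratio of effective length in leaf over root (log axis), where the class up to 300 bases lies around its median of 2.27 and the class over 1000 bases around 0.992.

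Length also separated weak from strong depletion in stem. The median fold of the smaller mean over stem was 6.66 up to 300 bases, 9.48 between 300 and 1000 bases and 23.4 above 1000 bases. Members less than 10 times above stem were 78.2% of the short, 53.1% of the middle and 34.9% of the long class. Of the 40 members at 100 times or more, 27 were over 1000 bases and 3 were up to 300 bases. A short transcript collects fewer reads at a given TPM, and the lowest leaf or root library of a short member held a median of 13.0 reads, against 61.3 and 522 in the other classes. All 33 members with under 10 reads in some leaf or root library were up to 300 bases long.

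**Figure D5:**
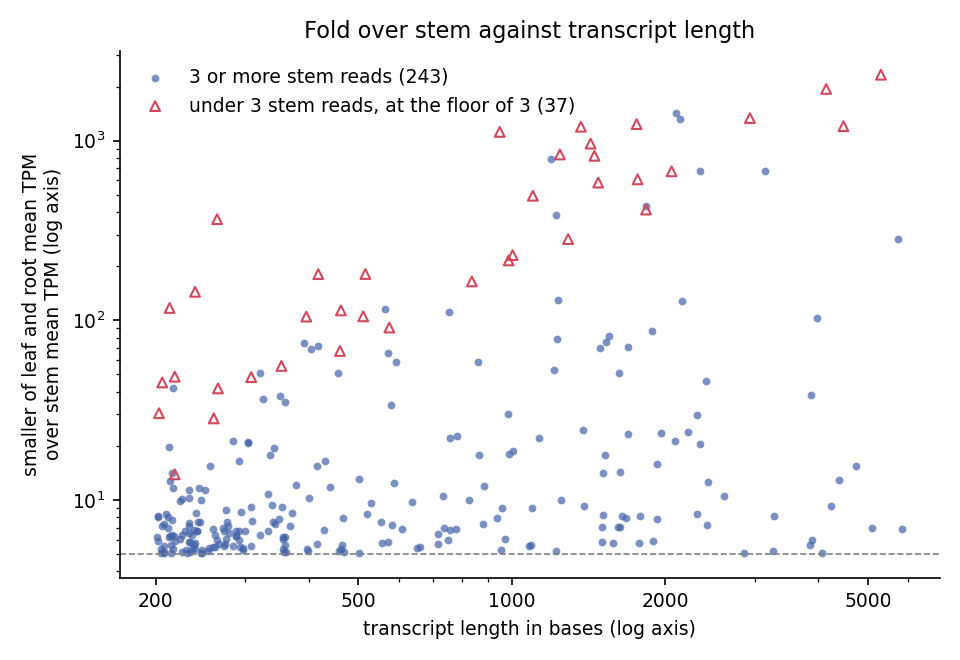
The smaller of the leaf and root mean TPM over the stem mean TPM, against transcript length, both on log axes, for the 280 members; open triangles are the 37 members with under 3 stem reads, placed at a floor of 3 reads over the stem libraries, and the dashed line marks the 5-fold limit. Short members crowd above the limit, with a median of 6.66-fold up to 300 bases and 23.4-fold over 1000 bases.

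The longest and the shortest members show the difference in precision. Transcript transcripts_36845 (5847 bases), the longest, had 29.0, 25.8 and 30.3 TPM in leaf, 12.8, 12.6 and 12.2 TPM in root, and 1.61, 2.53 and 1.29 TPM in stem, the last from 732 reads. Every leaf library was above every root library, and every stem library was below both. The shortest, transcripts_25469 (201 bases), had 30.5, 26.9 and 38.6 TPM in leaf, 35.7, 36.4 and 45.9 TPM in root, and 9.28, 0 and 6.18 TPM in stem. It rested on 6.87 to 9 reads per root library. The second shortest, transcripts_12537 (202 bases), had 30.1, 23.4 and 34.1 TPM in leaf, 60.7, 61.8 and 40.5 TPM in root, and 4.39, 2.28 and 4.31 TPM in stem, the last from 10 reads.

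Members just inside the limit were also short. Transcript transcripts_5783 (208 bases) had 45.2, 93.6 and 71.9 TPM in leaf, 54.3, 55.8 and 55.0 TPM in root, and 7.05, 12.8 and 13.0 TPM in stem, and its stem mean was 19.9% of the smaller mean. The same percentage held for transcripts_11387, described above, and for transcripts_10569 (205 bases), with 49.5, 88.0 and 98.9 TPM in leaf, 93.7, 90.7 and 179 TPM in root, and 8.09, 18.9 and 19.97 TPM in stem. Just outside lay transcripts_20985 (245 bases), with means of 15.8 TPM in leaf, 15.6 TPM in root and 3.11 TPM in stem. Next came transcripts_17081 (1318 bases) with 125 TPM in leaf, 75.4 TPM in root and 15.1 TPM in stem, and transcripts_17671 (433 bases) with 116 TPM in leaf, 201 TPM in root and 23.4 TPM in stem.

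Levels of the members were less even between libraries than those of other transcripts of leaf and root. The median coefficient of variation over leaf libraries was 13.1% for members and 7.75% for the 5498 others. In members it was 18.4% up to 300 bases, 14.7% between 300 and 1000 bases and 8.48% above 1000 bases. The others, which were longer, were not split by length. In stem the median coefficient of variation was 42.0% for the 253 members with stem reads and 7.46% for the others, whose stem levels were higher. From the short to the long class, the members' stem values were 50.4%, 33.9% and 32.4%. Root replicate 3 was within 2-fold of the average of root replicates 1 and 2 for 90.4% of members and 96.2% of the others, and its median ratio to that average was 0.889 for members and 0.808 for the others. Without root replicate 3, 316 transcripts met the rule, 271 of them among the 280, and with it as the only root library 320 did, 266 of them among the 280.

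Spearman correlations across the 280 members were 0.557 for leaf with root, 0.300 for leaf with stem and 0.445 for root with stem. Between libraries of a tissue they were 0.899 to 0.908 in leaf, 0.852 and 0.853 for root replicate 3 with root replicates 1 and 2, and 0.709 to 0.788 in stem. These correlations are across transcripts, share length and read sharing, and are set in part by the rule, which ties leaf to root and bounds stem, so no order is read from them.

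Estimated reads of the members were often fractions, which arise when a read matches several transcripts. Among transcripts with reads, 80.0% to 82.5% of members had a fractional number in a leaf library, against 72.7% to 74.1% of the 5498 others. The shares were 71.4% to 71.8% against 64.8% to 67.2% in root, and 62.1% to 65.2% against 71.9% to 77.9% in stem. The members' median was 7.14 to 9.99 estimated reads in a stem library, against 96.6 to 107 in a leaf library. These shares were not matched for read number, so the lower share in stem does not show less read sharing there. For the 27 members at 0 stem reads the share was 77.8% to 85.2% in leaf and 81.5% in root. Whole numbers in all 9 libraries were found for 27 of the 280 members. Whether the reads of some members lie on a similar transcript in stem was not tested.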

How the data were processed

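Poly(A)-enriched RNA of leaf, root and stem was sequenced in 9 strand-specific libraries, per the labels' protocols. Per the submitters' processing notes, fastp 0.23.2 and Salmon 1.10.0 were run; the reference and the settings are not given in the sources consulted. The deposited tables give, per the file headers, TPM and estimated counts for each transcript, with its length and effective length. Tissues were taken from the titles. The members and all tests were chosen with earlier results of these data known, and transcripts were named by rank on abundance, fold, leaf-to-root ratio, stem level, length and distance to the limit. Tissue means, folds and length classes were computed from TPM, with root replicates 1 and 2 averaged into 1 value. Estimated counts were rounded and fitted in R 4.3.3 with edgeR 4.0.16 (low transcripts removed with filterByExpr by tissue, TMM, robust quasi-likelihood test, 1 mean per tissue, 8 samples). Calls required both an adjusted p (Benjamini-Hochberg, over 24564 transcripts) under 0.05 and a log2 fold change of 1 or more in size. Reads were called fractional when more than 0.001 from a whole number. Alternatives used DESeq2 1.42.0, limma 3.58.1, other scalings, limits and filters, and each library left out. Intervals and floors cover counting error only.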

Additional observations from a re-analysis of the deposited data

How the results depend on the processing

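The number of transcripts that met the rule followed its limits: 554 with a minimum of 5 TPM, 137 with 20 TPM, 185 within 2-fold of leaf and root, 752 with stem at most 1/3 and 121 with stem at most 1/10 of the smaller mean, 141 with TMM-scaled TPM, and 179 with transcripts over 300 bases only (an alternative chosen after seeing the data). With each library left out it was 277 to 350, the highest without stem replicate 3, and 209 of the 280 met the rule in every one of these. Members called lower in stem than in leaf numbered 241 to 268 and lower than in root 227 to 257 with a library left out, and neither count moved by 1.5 times under any setting run. Members called different between leaf and root numbered 47, 40 to 50 with a library left out and 81 with limma on log2(TPM + 1). The medians of log2 folds of leaf over stem, root over stem and leaf over root were 3.27, 3.96 and -0.35. The first 2 were 2.73 and 3.35 with TMM-scaled TPM and 2.85 and 3.49 with log2(TPM + 1), and the 3 were 4.10, 4.38 and -0.11 over members above 300 bases. Leaf over root was -0.19 with root replicate 3 as the only root library. Leaving out a library gave 3.26 to 3.46, 3.95 to 4.18, and -0.39 to -0.32. Causes were not tested. With the replicate block on 9 libraries the calls were 266, 259 and 55, and without it 271, 264 and 55. Leaf and stem libraries of equal number had deviations from their tissue means that correlated at -0.037, 0.011 and 0.011. Those of unequal number gave -0.055 to 0.044. With 3 libraries per tissue, these values cannot decide whether equal numbers mark the same plant. Root could not be examined because replicates 1 and 2 were alike.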

Other observations

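A subset of 106 members (37.9%) met the rule on the deposited TPM, on TMM-scaled TPM, on TPM from full length, with root replicate 3 left out or as the sole root library, and had at least 10 reads in each leaf and root library. These settings were combined after seeing the data. The subset had a median length of 998 bases, with 8 transcripts up to 300 bases, 45 between 300 and 1000 bases and 53 above 1000 bases. Its median fold over stem was 27.0, its lowest was 7.31, and 19 of its transcripts had 0 stem reads. The filters set these lengths and folds in part. TMM scaling raises the fold needed on the deposited TPM, and the read minimum leaves out only members up to 300 bases. Named members of this subset include transcripts_34329, transcripts_31430, transcripts_36356, transcripts_14548, transcripts_7079, transcripts_13147, transcripts_3329, transcripts_6040 and transcripts_29759.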
